A study of Mus musculus with 10 samples.

Results

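H3K4me2 is the dimethylated form of lysine 4 of histone H3, and H3K27Ac is the acetylated form of lysine 27 of the same histone. The sites described here are the H3K4me2 peaks of mouse liver that overlapped no H3K27Ac peak. They were chosen by peak positions: a peak of the H3K4me2 list on chromosomes 1 to 19 was a member when it shared not even 1 bp with a peak of 6 H3K27Ac lists. Of the 11616 H3K4me2 peaks on these chromosomes, 1738 were members, or 15.0% (95% Wilson interval 14.3 to 15.6). The other 9878 met at least 1 of the 6 lists, and 4822 met all 6. Because the overlap chose the members, its size is a description and carries no test.

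The H3K4me2 list came from 1 library of formalin-fixed, paraffin-embedded (FFPE) normal mouse liver, made with FiT-seq, a protocol that digests the fixed tissue with proteinase K before sonication. The 6 H3K27Ac lists were 1 of fresh frozen normal liver, made by standard chromatin immunoprecipitation and sequencing (ChIP-seq), and 5 of FFPE normal liver, made with FiTAc-seq. FiTAc-seq heats the tissue overnight in detergent and then sonicates it. The 5 combined 50 °C with 5 or with 40 min of sonication, 65 °C with 5 min in 2 libraries, and 65 °C with 40 min in 1 library. All tissue was untreated liver from full sections, and the labels give no strain, age or number of animals. Whether the 2 libraries at 65 °C and 5 min came from separate animals is not stated, so their spread may be technical.

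H3K4me2 is written by methyltransferases of the MLL (KMT2) family and sits on nucleosomes around promoters and enhancers, in use or not. H3K27Ac is written by p300 and CBP and is the usual mark of promoters and enhancers in use, so elements with H3K4 methylation and no H3K27Ac are commonly called primed or, with a repressive mark, poised. Liver is mostly hepatocytes by mass, with endothelial cells, Kupffer cells, stellate cells and bile duct cells among them. In bulk tissue, a mark carried by few cells and a weak mark carried by many cannot be told apart. Genome sequence and gene annotation of the build used, mm9, were not used here, so the sites carry no gene names, and whether they lie at promoters was not tested.

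Each peak has a score from the authors, read here as a −log10 q-value from its range because no header names it. Such a value measures the significance of a peak over background and depends on the depth of its library. Read depth is unknown. On chromosomes 1 to 19 the 6 H3K27Ac lists held 38099 to 64465 peaks and covered 17.1 to 43.7 Mb, against 3.27 Mb for the H3K4me2 list. The series also holds an H3K27Ac list made with FiT-seq and one of FiTAc-seq at 80 °C with 40 min of sonication. They stood apart with 112 and 55 peaks on these chromosomes, and neither was used to choose the members. The FiT-seq H3K27Ac list met 22 members, or 1.27%, where it met 0.878% of all H3K4me2 peaks. The members are therefore sites outside the 6 lists, and not sites outside every H3K27Ac list of the series. Most of the 112 FiT-seq H3K27Ac peaks met a peak of the H3K4me2 list, and most also met a peak of the 6 lists. Whether the 22 members carry H3K27Ac was not tested.

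Some members lay beside H3K27Ac peaks and more lay far from them. Their distance to the nearest H3K27Ac peak of any of the 6 lists, counted in bases between the 2 peaks, had a median of 12465 bp and quartiles of 371.5 and 43134 bp. Within 500 bp of H3K27Ac lay 468 members, or 26.9% (24.9 to 29.1). Between 500 and 1000 bp away lay 60 members, and between 1000 and 5000 bp 119. Beyond 5000 bp lay 1091 members, or 62.8%, and 175 of these were more than 100000 bp away. These ranges differ greatly in length, so the counts do not show a gap in the distances. The distances that position alone would give were not computed. Below, the 528 members within 1000 bp are called flanking and the 1091 beyond 5000 bp distant.

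**Figure D1:**
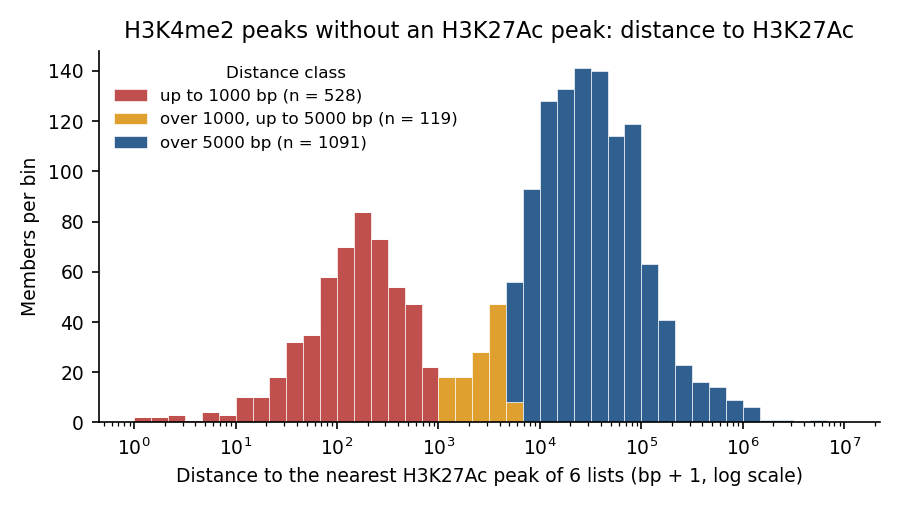
Number of members (vertical axis) by distance to the nearest peak of the 6 H3K27Ac lists (horizontal axis, bp + 1, log scale), in bins of equal width on the log scale, stacked by distance class. On the log scale the 528 flanking members and the 1091 distant members form separate humps, with 119 members between them. The bins span more bases at larger distances, so the humps do not show a gap in the distances.

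Flanking members sat close to acetylated sites that often carried H3K4me2 of their own. Their median distance to H3K27Ac was 153 bp (quartiles 74 and 296 bp). At 155 of the 528 (29.4%), all 6 lists had a peak within 1000 bp, at 93 (17.6%) 5 lists did, and at 125 (23.7%) only 1 did. Few lay between a pair of acetylated peaks: 24 flanking members (4.55%) had peaks of the same list within 1000 bp on both sides. Another H3K4me2 peak lay within 1000 bp of 285 flanking members, or 54.0% (49.7 to 58.2). Over all H3K4me2 peaks this share was 32.4%, and among distant members it was 15.2% (13.2 to 17.5). The distance classes set much of this contrast, because they place flanking members beside H3K27Ac, where most H3K4me2 peaks lie, and distant members away from it. In 255 of those 285 cases the nearest H3K4me2 neighbour was itself on an H3K27Ac peak, since only 30 of the neighbours were members.

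The H3K27Ac peaks beside flanking members were described in the fresh frozen list, which had a peak within 1000 bp of 441 members. These members shared 429 nearest fresh frozen peaks. Their median width was 396 bp and their median −log10 q-value 15.1, against 346 bp and 9.81 over the whole list. Of the 429, 221 met an H3K4me2 peak, or 51.5% (46.8 to 56.2), where 16.3% (15.9 to 16.6) of all fresh frozen peaks did. The ratio of the shares was highest among weak peaks. In the lowest quartile of fresh frozen −log10 q-values, 35 of 82 such neighbours met an H3K4me2 peak, or 42.7% (32.5 to 53.5), and 4.08% (3.73 to 4.45) of the rest. In the highest quartile the shares were 54.3% (46.9 to 61.5) and 38.2% (37.3 to 39.0). A fresh frozen peak beside a member is by construction near an H3K4me2 peak, and H3K4me2 peaks lie close together, so these shares describe a neighbourhood and test nothing.

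At the edge of the rule, the members closest to H3K27Ac adjoined a peak without sharing a base or stood 1 bp from it. At chr5:112771488-112771650, a 163 bp member of −log10 q 4.29, peaks of both lists of 40 min adjoined it, and the fresh frozen peak was 29 bp away. At chr5:137043489-137044066, a 578 bp member of −log10 q 7.36, the first library at 65 °C and 5 min had the adjoining peak. The 402 bp member at chr18:25326566-25326967, with a −log10 q of 8.78, was 1 bp from a peak of that same library. On the other side of the rule, the H3K4me2 peaks at chr2:139995625-139995825 and chr3:7503965-7504128 shared 1 bp with a single list, and chr13:21872153-21872487 shared 2 bp. Their −log10 q-values were 8.47, 6.34 and 6.90. In all, 90 members were less than 50 bp from an H3K27Ac peak, and 127 other H3K4me2 peaks shared no more than 50 bp with any list.

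Fresh frozen liver had H3K27Ac peaks within 1000 bp of the members more often than any FiTAc-seq list. A fresh frozen peak lay within 1000 bp of 25.4% (23.4 to 27.5) of the members. At 65 °C and 5 min the 2 libraries had such a peak at 21.2% and 19.04%, a mean of 20.1% ± 1.55 (SD, n = 2). After 40 min of sonication the share was 18.4% in the 50 °C library and 18.8% in the 65 °C library. It was lowest, 10.1% (8.80 to 11.6), for 50 °C with 5 min. Against the mean of the pair, fresh frozen liver differed by 5.24 points and 50 °C with 5 min by -10.0 points, both larger than the SD of 1.55. The lists of 40 min differed by -1.73 points at 50 °C, slightly more than the SD, and by -1.32 points at 65 °C, less than it. Each of these conditions other than the pair had 1 library, so no test was possible. The rule also shaped these shares, since it took out every H3K4me2 peak that any of the lists met. Fresh frozen liver met 70.2% of all H3K4me2 peaks, the pair 76.7% and 73.4%, and 50 °C with 5 min 48.9%. The order of the lists is therefore a description.

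By median distance, too, fresh frozen liver was nearest and 50 °C with 5 min farthest. The median distance from a member to the nearest peak was 16948 bp in fresh frozen liver and 41920 bp at 50 °C and 5 min. In the pair it was 23242 and 26240 bp, and it was 26557 bp at 50 °C and 25770 bp at 65 °C after 40 min. Fresh frozen liver had 47238 peaks covering 20.1 Mb on these chromosomes. The first library of the pair had 59431 peaks covering 43.7 Mb, and the 50 °C, 5 min list 38099 peaks covering 17.1 Mb. At close range the order differed: within 100 bp, fresh frozen liver had a peak at 4.14% of the members and the first library at 65 °C and 5 min at 4.89%. The fresh frozen list covered less sequence than 4 of the 5 FiTAc-seq lists. How far the rule, peak number and peak width set these distances was not tested.

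**Figure D2:**
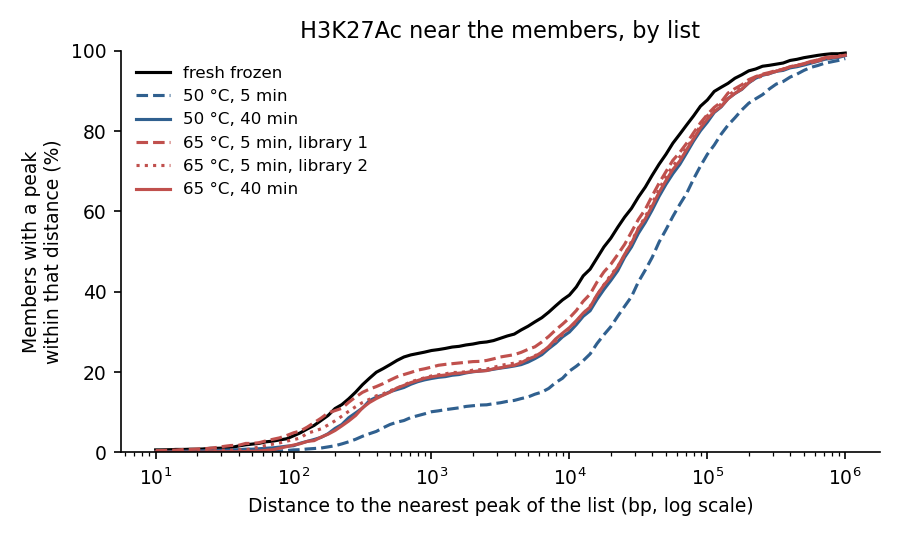
Share of the 1738 members with a peak of a given H3K27Ac list (vertical axis, percent) within a given distance (horizontal axis, bp, log scale), with 1 line per list. The fresh frozen line is highest at 1000 bp, at 25.4%, the line of 50 °C and 5 min lowest, at 10.1%, and the other 4 lie between 18.4% and 21.2%.

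Left out singly, the fresh frozen list changed the number of members more than any other list. Of the 727 H3K4me2 peaks that met exactly 1 list, 402 met fresh frozen liver alone. The first and second libraries at 65 °C and 5 min alone met 141 and 99. Of the lists of 40 min, that at 50 °C alone met 44 and that at 65 °C 34, and 7 were met only after 5 min at 50 °C. Without the fresh frozen list the number of members would be 2140, and without the 50 °C, 5 min list 1745. These counts favour the fresh frozen list, the only one of its kind. A peak met by several of the 5 FiTAc-seq lists counts for none of them alone, and the pair at 65 °C and 5 min was not left out together. By all H3K4me2 peaks met, this pair led, with 8908 and 8531 against 8156 in fresh frozen liver.

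Distant members had few H3K4me2 peaks around them, which their definition largely fixes: a peak on H3K27Ac can hardly lie within 5000 bp of a site that is farther than that from H3K27Ac. All 166 distant members with an H3K4me2 peak within 1000 bp had another member as the nearest one. The median distance of distant members to the nearest other H3K4me2 peak was 43219 bp (quartiles 12189 and 117565 bp), against 14904 bp for the 9878 H3K4me2 peaks on H3K27Ac. Another H3K4me2 peak lay within 5000 bp of 175 distant members, or 16.0% (13.98 to 18.3). The share was 57.6% (53.3 to 61.7) for flanking members, 38.3% (37.4 to 39.3) for peaks on H3K27Ac and 37.0% over all H3K4me2 peaks. Distant and flanking members had similar medians of width and score. Median widths were 213 bp (205 to 219) and 208.5 bp (200 to 219), and median −log10 q-values were 5.51 (5.33 to 5.69) and 5.27 (5.12 to 5.40). The upper ends of the scores differed more. A −log10 q of at least 10 was reached by 106 distant members, or 9.72%, and by 23 flanking ones, or 4.36%. Over all H3K4me2 peaks this share was 6.80%. Among the 100 highest H3K4me2 peaks were 14 distant members, or 1.28% of them, and 1 flanking member, or 0.189%. Of all H3K4me2 peaks, 0.826% were among these 100. The distances that define the 2 groups are not part of the rule and were set after the distribution was seen.

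Some members lay megabases from any H3K27Ac peak. The farthest was chr14:3208926-3209080, a 155 bp peak of −log10 q 6.52. Its nearest fresh frozen peak was 5397195 bp away, and its nearest FiTAc-seq peaks 5441299 to 5441425 bp away. At chr1:148341910-148342096, with a −log10 q of 3.12, the distances ran from 2163859 bp in fresh frozen liver to 2245923 bp at 50 °C and 40 min. The 218 bp peak at chr15:21044627-21044844 was stronger, with a −log10 q of 12.6 and rank 360 in its list. Fresh frozen liver had its nearest peak 1659323 bp from it, the pair at 65 °C and 5 min at 2407858 and 2407863 bp, and the other 3 lists none closer than 4154203 bp. The last of the 5 farthest were chr1:76980425-76980570, 1322296 bp away, and chr12:22811624-22811793, 1235293 bp away, with −log10 q-values of 6.43 and 8.12. At 4 of these 5 the fresh frozen list had the nearest peak, and at the chromosome 12 site the first library at 65 °C and 5 min did. Other H3K4me2 peaks were far from these sites too. The nearest was 5441639 bp from the chromosome 14 site, 2716831 bp from chr1:148341910-148342096 and 1261967 bp from the chromosome 12 site, in each case farther than H3K27Ac. It was closer than H3K27Ac at the chromosome 15 site, at 541405 bp, and at chr1:76980425-76980570, at 530508 bp.

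Some of the members formed runs, which were built among members only. No such share was computed for other H3K4me2 peaks, so more or less clustering than theirs cannot be read from it. With gaps of up to 12.5 kb allowed, 294 members (16.9%) lay in 137 runs of at least 2, and 124 of the runs were pairs. The longest held 5 members each. That at chr6:29120295-29129647 spanned 9353 bp, with −log10 q-values of 4.62 to 9.20 and H3K27Ac no closer than 5555 bp to any of its members. That at chr8:19899483-19929001 spanned 29519 bp, with scores of 4.49 to 6.77. Runs of 4 lay at chr6:47716747-47726716, with scores of 8.67 to 27.7, at chr9:72648235-72655765, with 3.84 to 8.55, and at chr10:20878758-20880598, with 2.69 to 5.68. The last packed its 4 members, each 169 to 198 bp wide, into 1841 bp, and none was closer than 98925 bp to H3K27Ac. These 5 runs held no H3K4me2 peak other than their members.

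Members were narrower than the other H3K4me2 peaks and scored about the same. The median width was 211 bp (206 to 217) for members and 248 bp (246 to 252) for the others, and the upper quartiles were 298 and 353 bp. These intervals, like those of the medians above, come from binomial ranks and treat peaks as independent, which neighbouring peaks are not. The shortest peak listed was 146 bp in every list. Of the members, 282 had that width, or 16.2% (14.6 to 18.0), and 787 of the others, or 7.97% (7.45 to 8.52). Over all H3K4me2 peaks the share was 9.20%. The median −log10 q-value was 5.41 (5.30 to 5.52) for members and 5.52 (5.48 to 5.57) for the others, a difference of -0.12. Within quartiles of width the sign turned, with members 0.15 higher as the median of the 4 classes. The narrowest class had medians of 4.94 for members and 4.76 for the others, and the widest 7.12 and 6.77. A narrow peak has less room to meet another peak by position alone, and this part of the width difference was not separated.

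The share of H3K4me2 peaks that were members hardly depended on the strength of the peak. It was 16.7% (10.5 to 25.4) among the 100 highest of the list and lay between 14.02% and 17.3% in the 6 lower rank classes. By width it fell steadily, from 21.1% (19.7 to 22.6) at 146 to 180 bp to 10.4% (9.31 to 11.5) at 345 bp and more. Within quartiles of −log10 q, members were narrower in each of the 4, with 181 against 204 bp in the lowest and 267 against 334 bp in the highest.

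**Figure D3:**
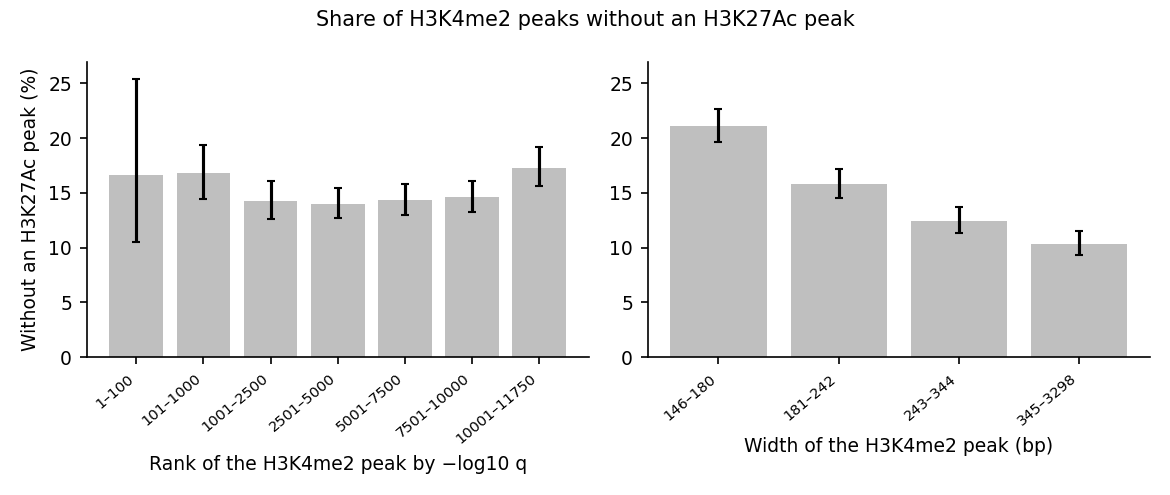
Share of H3K4me2 peaks without an H3K27Ac peak (vertical axes, percent) by rank of the H3K4me2 peak in its list (left) and by its width in bp, in quartiles (right). Bars are shares and whiskers Wilson 95% intervals. The shares stay between 14.02% and 17.3% over the ranks and fall from 21.1% to 10.4% over the widths.

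Width did not rise evenly with the number of H3K27Ac lists that met a peak. The step was between no list and 1 list, with medians of 211 and 240 bp. Peaks met by 1 to 5 lists had medians of 231 to 245 bp, and the 4822 peaks met by all 6 lists 256 bp. The −log10 q-value followed another order. The highest median, 6.13, belonged to the 727 peaks met by exactly 1 list, of which 17.1% had a −log10 q of at least 10. Among members that share was 7.94%, among the peaks met by all 6 lists 4.002%, and over all H3K4me2 peaks 6.80%.

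**Figure D4:**
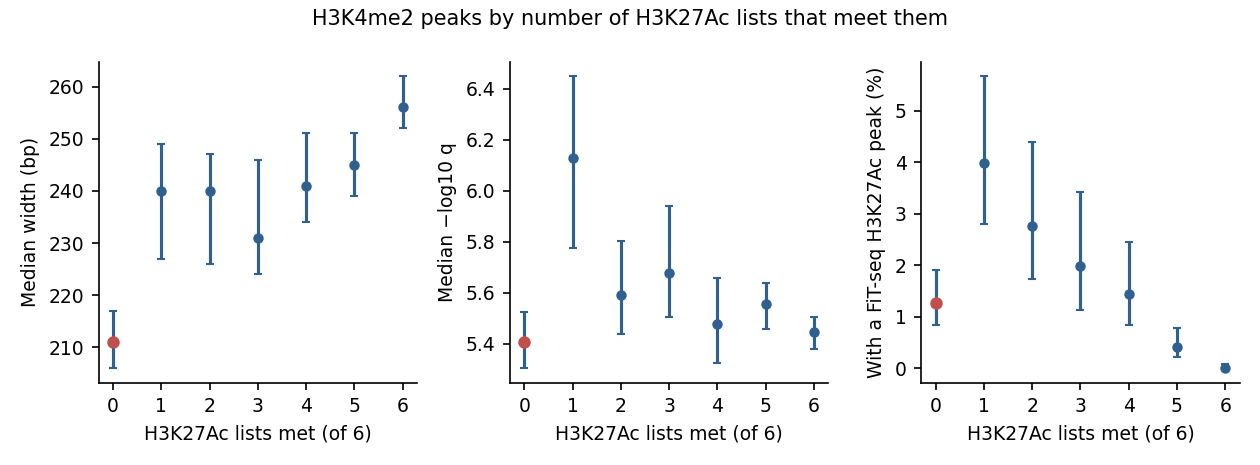
Median width in bp (left), median −log10 q (middle) and share with a FiT-seq H3K27Ac peak in percent (right) of H3K4me2 peaks, by the number of H3K27Ac lists that meet them (horizontal axes). Points are values and whiskers 95% intervals; the red point is the 1738 members. Members have the lowest median width, 211 bp, and peaks met by 1 list the highest median −log10 q, 6.13, and the highest share, 3.99%.

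The 2 short H3K27Ac lists gave readouts that the rule did not use. The FiT-seq H3K27Ac list met 22 members, or 1.27% (0.837 to 1.91), and 80 of the other peaks, or 0.810% (0.651 to 1.01). Over all H3K4me2 peaks the share was 0.878%, within the interval for the members. The difference of 0.456 points depended on the lists in the rule. It was 1.03 points, with 32 members met, when the second library at 65 °C and 5 min was left out of the rule. It was 1.21 points, with 40 members met, without the fresh frozen list, and 0.183 points without the 100 highest H3K4me2 peaks. The FiTAc-seq list of 80 °C met 0 of 1738 members, which allows a share of up to 0.173%. It met 13 of the others, or 0.132% (0.0769 to 0.225), and 0.112% of all H3K4me2 peaks, so the difference was not detectable with so few peaks. Of the 4822 H3K4me2 peaks met by all 6 lists, the FiT-seq H3K27Ac list met 0.

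The members with a FiT-seq H3K27Ac peak were mostly high, and none was wide. All 22 were 146 to 270 bp wide, with a median of 236.5 bp against 211 bp for all members. The 80 other H3K4me2 peaks with a FiT-seq H3K27Ac peak had a similar median width, 253 bp, but reached 3298 bp. Of the 22, 18 had a −log10 q of at least 10, or 81.8%, against 7.94% of all members. The high score was shared by the other H3K4me2 peaks with a FiT-seq H3K27Ac peak, of which 70 of 80, or 87.5%, reached it. Among the 100 highest H3K4me2 peaks of the list, 16 were members, or 0.921% of the members beside 0.826% of all H3K4me2 peaks. Of these 16, 12 met a FiT-seq H3K27Ac peak, or 75% (50.5 to 89.8), and so did 41 of the 80 other peaks of that rank, or 51.2% (40.5 to 61.9). The 16 members were 223 to 270 bp wide with a median of 242 bp, where the other 80 had a median of 325 bp and reached 1686 bp. Peaks of this rank often lay near chromosome starts. Within 500000 bp of the first peak of any list on the chromosome lay 2 of the 16 (12.5%) and 19 of the 80 (23.8%). Over all H3K4me2 peaks this share was 1.02%. One of the 22, named after its values were seen, stood apart: chr17:39983452-39983662, 211 bp wide with an H3K4me2 −log10 q of 9.72, met a FiT-seq H3K27Ac peak of 5939 bp and −log10 q 92.7. Below rank 100, 10 of 1722 members met a FiT-seq H3K27Ac peak, or 0.581% (0.316 to 1.07), and 0.398% (0.291 to 0.544) of the others. Both FiT-seq lists came from FFPE tissue broken up with proteinase K, and most peaks of the H3K27Ac one met a peak of the H3K4me2 one. The FFPE input library was not analysed here, so signal present without an antibody was not tested.

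**Figure D5:**
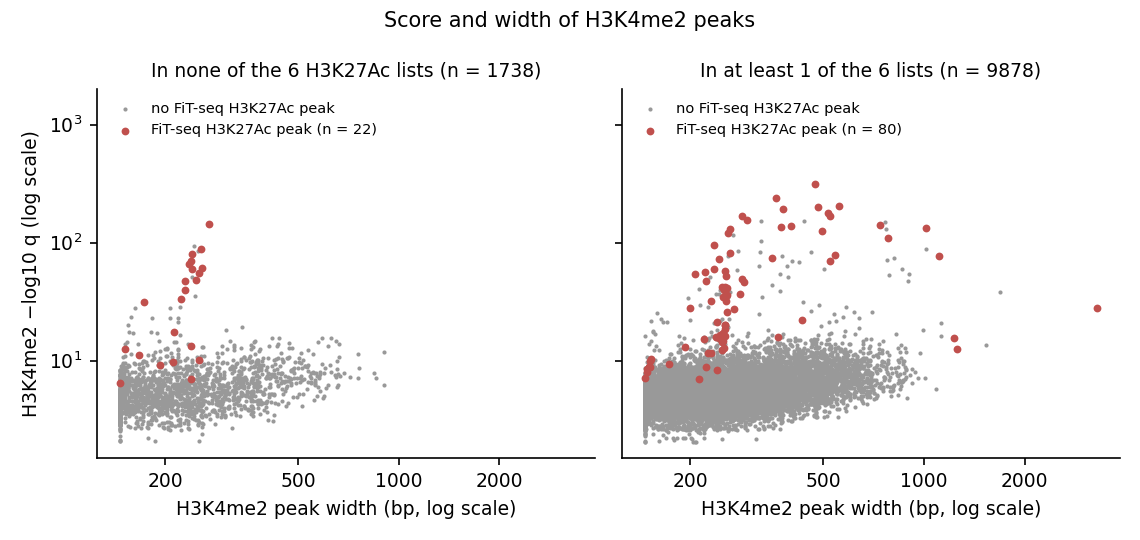
H3K4me2 −log10 q (vertical axes, log scale) against width in bp (horizontal axes, log scale), with 1 point per H3K4me2 peak, for the 1738 members (left) and the 9878 other peaks (right). Red points also have a FiT-seq H3K27Ac peak, and the 22 red members all lie between 146 and 270 bp.

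Among the highest members, the peak at chr6:3151366-3151635, 270 bp wide, had a −log10 q of 143 and rank 13 for H3K4me2, and the FiT-seq H3K27Ac list had a 239 bp peak there with a −log10 q of 35.9 and rank 20. Every one of the 6 lists nonetheless had its nearest peak between 17397 and 18577 bp away. At chr9:110183699-110183954 the H3K4me2 −log10 q was 88.8, the FiT-seq H3K27Ac one 22.2, and the nearest peaks of the 6 lists lay 23092 to 23328 bp away. At chr18:73693002-73693242 the 2 FiT-seq values were 80.6 and 24.9. At 50 °C and 5 min the nearest peak was 37923 bp from it, and in the other 5 lists 7889 to 8281 bp.

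A pair of the highest members had no FiT-seq H3K27Ac peak. The peaks at chr1:24619466-24619716 and chr1:24619839-24620081 were 122 bp apart, with −log10 q-values of 84.9 and 93.8. All 6 lists had their nearest peak 64624 to 65124 bp from them. The remaining 3 of the 8 highest were chr16:35981719-35981957, chr8:15519813-15520047 and chr16:91534790-91535047, with −log10 q-values of 69.4, 66.0 and 60.4, and each had a FiT-seq H3K27Ac peak, of −log10 q 18.0, 22.8 and 15.5. They differed in surroundings. The chromosome 8 site was at least 491706 bp from H3K27Ac. The site at 35981719 on chromosome 16 had a peak of the 65 °C, 40 min list 797 bp away and peaks of the other 5 lists 1279 to 1622 bp away. All 8 of the highest members were 235 to 270 bp wide.

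The broadest members had moderate scores. In the widest 10% of H3K4me2 peaks, at 468 bp and more, there were 100 members, with a median −log10 q of 7.75 and a highest value of 15.6. None met a FiT-seq H3K27Ac peak, where 0 of 100 allows a share of up to 3%, above the 0.878% of all H3K4me2 peaks, so no difference was detectable. Of the other H3K4me2 peaks of these widths, 15 of 1070 met one. Of the 100 members, 73 were distant, where 62.8% of all members were. The widest were 2 peaks of 900 bp. That at chr9:77502915-77503814 had a −log10 q of 11.8 and lay 50666 bp or more from all 6 lists, with 5 of them within 50797 bp. That at chr7:36369672-36370571 had a −log10 q of 6.23 and was flanking, 225 bp from a peak of the first library at 65 °C and 5 min and 666 bp from a fresh frozen one. Next came chr1:169213889-169214742, 854 bp wide and 68 bp from fresh frozen H3K27Ac, then chr9:75473285-75474128, 844 bp wide and 65721 bp from the nearest list. At chr13:3359839-3360598, 760 bp wide with a −log10 q of 8.58, fresh frozen liver had a peak 11336 bp away and the FiTAc-seq lists none closer than 164299 bp.

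At a −log10 q of at least 10, narrow and wide members could be set side by side. There were 138 such members, or 7.94% of the members, beside 6.80% of all H3K4me2 peaks. Of the 138, 76 were no wider than 270 bp, the widest with a FiT-seq H3K27Ac peak. Of these 76, 18 met that list, and their highest −log10 q was 143. The other 62 had a median width of 399 bp, a highest −log10 q of 19.3 and no FiT-seq H3K27Ac peak. Both groups were mostly distant, with 77.6% and 75.8% of their members, and their median distances to H3K27Ac were 23476 and 22746 bp. Over all members 62.8% were distant, and the median distance was 12465 bp. The width limit came from the members that met the FiT-seq H3K27Ac list, so it is a description.

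Members lay on all 19 chromosomes. They made up between 11.8% (9.74 to 14.3) of the H3K4me2 peaks on chromosome 5 and 19.6% (16.4 to 23.2) on chromosome 13, where 102 of 521 were members. On chromosomes 18, 1 and 8 the shares were 18.8%, 17.3% and 17.2%, and on chromosomes 15, 19 and 7 they were 11.9%, 11.9% and 12.5%. The intervals of chromosomes 13 and 5 do not overlap, but they are the ends of a ranking of 19 and peaks of a chromosome are not independent. Distant members were 13.4% of the H3K4me2 peaks of chromosome 13 and 6.68% of those of chromosome 5, with the lowest share, 6.07%, on chromosome 19.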

How the data were processed

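H3K4me2 and H3K27Ac ChIP-seq peaks of mouse liver were analysed in 9 deposited lists, 1 per library. Per the submitters' processing notes, BWA and MACS2 were used with mm9. Their versions, the thresholds and any control are not given in the sources used here. The last of 5 columns in the authors' deposited lists was read as the −log10 q-value from its range, since no header names it. Depth is unknown, so precision is given as Wilson or rank-based 95% intervals, which cover counting error only.

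Overlap (at least 1 bp), the bases between peaks and runs (gaps of up to 12.5 kb) were computed in Python 3.11.15 with numpy 2.4.6, pandas 2.3.3 and scipy 1.17.1, and checked on 5000 peaks with known overlaps and distances, where 100% came out right. Coordinates are 1-based. No test was run, since peaks of 1 library are not replicates. The members and alternatives were chosen with earlier results of these data known, and the distance classes, the fresh frozen neighbours by quartile and the split by width at high score after values were seen. Sites named are the 8 highest, 5 widest and 5 farthest members, the 5 longest runs, the 5 highest with a FiT-seq H3K27Ac peak, and 3 on either side of the rule. Alternatives changed the overlap, score minimum, merging, distance, chromosomes and the lists in the rule. The input library, genes and sequence were not analysed here.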

Additional observations from a re-analysis of the deposited data

How the results depend on the processing

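The number of members was between 1028 and 2312 over 12 alternatives and within 1.5 times the 1738 in 10 of them. It was 1028 with H3K4me2 peaks of a −log10 q of at least 5, and 1091 when members had to lie more than 5000 bp from H3K27Ac. It was 2312 when H3K27Ac had to cover 50% of the peak.

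Members were narrower in all 13 alternatives, by a difference of medians from -64 to -18 bp. The main difference was -37 bp. It was -18 bp with the 50% rule, -52.5 bp with a −log10 q of at least 5, -64 bp with H3K4me2 peaks merged within 500 bp and -29 bp without the fresh frozen list. Most alternatives keep the overlap of 1 bp, which a narrow peak has less room to meet, and they reuse largely the same peaks. Their shared sign is therefore no separate support.

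The median −log10 q, members minus others, had no stable sign. It was -0.12 as reported, 0 with the 50% rule, 0.0928 with a −log10 q of at least 5, 0.0912 without the fresh frozen list, and 0.15 within quartiles of width. Leaving out either library at 65 °C and 5 min gave -0.18 and -0.08. The cause was not tested.

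The share within 5000 bp of H3K27Ac, 37.2%, was 52.8% with the 50% rule, 29.0% with merged H3K4me2 peaks, 31.8% without the fresh frozen list, and 39.6% and 38.8% without the first and second library at 65 °C and 5 min. At 1000 and 25000 bp it was 30.4% and 63.5%.

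The difference in the share with a FiT-seq H3K27Ac peak was 0.18 to 1.21 points in 12 alternatives, with 1.21 without the fresh frozen list. The main difference, 0.456 points, was smaller than the half-width of the members' interval, 0.536 points. The alternatives reuse largely the same peaks, so their shared sign is no support for an excess. Leaving out the first or second library at 65 °C and 5 min gave 0.349 and 1.03. The difference for the 80 °C list was -0.18 to -0.13 points in its 11 alternatives. That list met 0 of the 1738 members, and with 0 met the difference cannot be positive. Its sign therefore carries no weight. Merging the H3K27Ac peaks within 500 bp, which left 1730 members, and leaving out the 100 highest H3K4me2 peaks were chosen after seeing the data. No paired analysis was possible because only 1 condition had replicates. Few peaks limit the 2 short lists.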

Other observations

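H3K4me2 peaks of chromosome X, which the rule leaves out, lacked H3K27Ac more often than those of the other chromosomes. Of 129 H3K4me2 peaks on chromosome X, 50 met none of the 6 lists, or 38.8% (95% Wilson interval 30.8 to 47.4), against 15.0% on chromosomes 1 to 19 and 19.6% on the highest of these. Of the 129, 35 (27.1%) were more than 5000 bp from H3K27Ac, where the share on chromosomes 1 to 19 was 9.39%. All 6 lists met a smaller share of the peaks on chromosome X. Fresh frozen liver met 48.1% there and 70.2% on chromosomes 1 to 19, the libraries at 65 °C and 5 min 45.0% and 38.8% against 76.7% and 73.4%, and the 50 °C, 5 min list 7.75% against 48.9%.

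The median chromosome X peak was 202 bp wide and had a −log10 q of 5.08, where the values on chromosomes 1 to 19 were 242 bp and 5.52. The share was higher at both widths, with 41.2% (31.3 to 51.8) against 18.5% up to 241 bp and 34.1% (21.9 to 48.9) against 11.4% (10.7 to 12.3) above. The fresh frozen list had 928 H3K27Ac peaks on chromosome X, fewer than on any of chromosomes 1 to 19, where the lowest number was 1466, on chromosome 18. Divided by the number of H3K4me2 peaks, this gave 7.19 on chromosome X and 4.07 on chromosomes 1 to 19. The FiTAc-seq lists in the rule also had a higher ratio on chromosome X, except that of 50 °C and 5 min, with 2.40 against 3.28. The ratio on chromosome X divides by only 129 H3K4me2 peaks. It is not the number of H3K27Ac peaks per length of chromosome, which was not computed. How far the number of peaks sets the share was not tested. This comparison was made after seeing the data, in 1 H3K4me2 library, and was not tested.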
